A study of Bos taurus with 9 samples.

Results

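The 77 genes described here encode mitochondrial ribosomal proteins, and they were measured in RNA sequencing libraries of bovine blastocysts. They were chosen by symbol, as the genes of the deposited table that begin with MRPL or MRPS followed by a digit, out of 22127 genes in all. Each of the 9 libraries came from a pool of 9 to 11 blastocysts collected on day 8 after in vitro fertilisation. The oocytes, still enclosed in cumulus cells, had been matured for 24 hours in 1 of 3 media, and each medium gave 3 libraries. Control medium held 5.5 mM glucose without BHB, low glucose medium held 2.75 mM glucose without BHB, and the last medium held 2.75 mM glucose with 1.8 mM BHB, which the labels do not spell out and which is taken here as beta-hydroxybutyrate, a ketone body. All media also contained serum, pyruvate, gentamicin, FSH and estradiol, and all groups shared the same fertilisation and culture steps. The media thus differed during maturation alone, and the transcripts were read in the embryo days later. The labels give neither breed nor embryo sex, and they do not say that replicates came from separate cultures, so the tests measure the spread between these pools, which may be technical.

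Mitochondria carry their own ribosome, which translates the few proteins encoded by mitochondrial DNA, all of them parts of the respiratory chain or of ATP synthase. The ribosomal RNA comes from mitochondrial DNA, but every ribosomal protein is encoded in the nucleus, made in the cytosol and imported, so that both genomes must contribute to a working particle. The large subunit joins amino acids and passes the chain to the inner membrane, and the small subunit binds the messenger RNA and reads its codons. Many of the proteins have counterparts in bacteria, and others belong to families added during the evolution of mitochondria. Early embryos inherit their mitochondria from the oocyte.

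By structural assignments known from mammalian mitochondrial ribosomes, 50 members belong to the large subunit and 26 to the small subunit. The symbols do not always give the subunit: MRPS30 and MRPS18A, named for the small subunit, sit in the large one. MRPS36 is no longer counted as a ribosomal protein, being known as a component of the 2-oxoglutarate dehydrogenase complex, and is kept here because its symbol meets the rule. Of the large subunit members, 29 are classed here with families found in bacteria and 21 with mitochondrial families, and of the small subunit members 16 and 10. In addition, 5 mitochondrial ribosomal proteins carry other symbols (DAP3, PTCD3, CHCHD1, AURKAIP1 and GADD45GIP1) and are described separately.

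Every member was well covered, with 476 to 10743 estimated counts in a library. All 77 passed the filter on low counts, which kept 16469 genes, and none owed this to a single group. Libraries summed to between 55611205 and 75178898 estimated counts. The smallest count, that of MRPL33 in a BHB library, carries a counting error of 4.58%, which is below the spread between libraries, and such errors cover counting only. Levels below are in CPM, counts scaled to library size with TMM factors, which correct for differences in RNA composition. They compare 1 gene between libraries and not genes with each other, because transcript lengths were not used.

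The libraries held the markers of a blastocyst. The trophectoderm keratin gene KRT8 ran from 7475 to 10820 CPM, and POU5F1, a pluripotency factor gene, from 888 to 1101 CPM. Markers of cumulus and granulosa cells, which surround the oocyte, were present too: their summed level over 23 genes was 1109 to 1514 CPM in control, 773 to 1496 CPM in low glucose and 884 to 1342 CPM with BHB. PTGS2 was the largest part of each sum, at 355, 544 and 454 CPM in the controls. It read 1011, 657 and 414 CPM in low glucose and 464, 928 and 606 CPM with BHB. Unlike PTGS2, most of these markers were below control: 19 of 23 in low glucose and 17 of 23 with BHB. INHA, another of these markers, was at 0 in 4 libraries, and FSHR stayed between 3.32 and 5.67 CPM. In pooled embryos, fewer cells of a type and less RNA per cell cannot be told apart. Control replicate 1 stood apart from the other libraries for many members, as described next, and results that rest on it are given with and without it.

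Taken as a group, transcripts of mitochondrial ribosomal proteins held a near constant share of the blastocyst's messenger RNA. Their summed level was 4361, 4918 and 5008 CPM in the control libraries, 5006, 5096 and 5165 CPM in low glucose, and 4928, 4949 and 5023 CPM with BHB. Control replicate 1 was the lowest library, and the other 8 lay within 4918 to 5165 CPM. By medium the sum was 4762 ± 350.2 CPM in the controls, 5089 ± 79.4 CPM in low glucose and 4967 ± 50.2 CPM with BHB (SD, n = 3 each). Of all counts, members took between 0.467% and 0.517%. The ratio of large to small subunit transcripts also moved little, from 2.12 to 2.20 over the 9 libraries. The highest library exceeded the lowest 1.18-fold in this sum, against 1.20-fold for 81 nuclear genes of the respiratory chain and ATP synthase, 1.26-fold for 84 cytosolic ribosomal protein genes and 3.67-fold for the 13 proteins encoded in mitochondrial DNA.

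**Figure D1:**
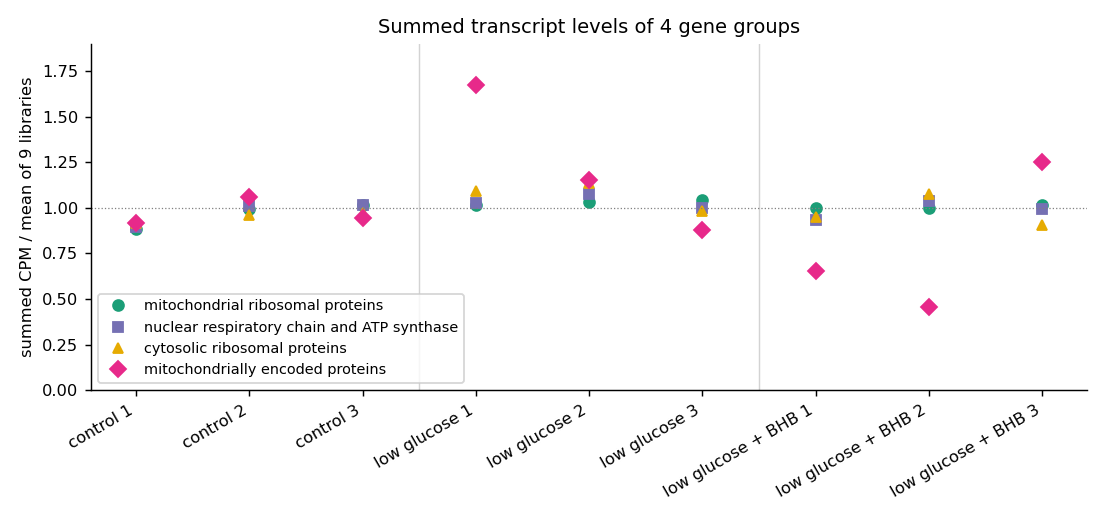
Summed transcript level of 4 gene groups in each of the 9 libraries, as a ratio to the mean of that group over all libraries (linear axis from 0). Mitochondrial ribosomal proteins (circles), nuclear respiratory chain genes (squares) and cytosolic ribosomal proteins (triangles) stay close to 1, while mitochondrially encoded proteins (diamonds) run from 0.457 in BHB replicate 2 to 1.68 in low glucose replicate 1.

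The messenger RNAs that the mitochondrial ribosome translates varied more between pools than the messenger RNAs for its proteins. Mitochondrially encoded transcripts stood at 46040.2, 53032 and 47417 CPM in the control libraries, 83881, 57771 and 44022 CPM in low glucose, and 32618, 22859 and 62761 CPM with BHB. BHB replicate 2 held the least of them and low glucose replicate 1 the most, yet their sums for ribosomal proteins were 4949 and 5006 CPM. None of the 13 mitochondrial genes passed the adjusted threshold in any comparison.

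Single members varied little as well. Within media, the SD of log2 CPM had a median of 0.137 over the members, against 0.291 over all genes tested and 0.191 over the 7228 genes whose mean level lies in the members' range of 9.88 to 144 CPM. Similar groups were about as even. The median was 0.143 for nuclear genes of the respiratory chain and ATP synthase and 0.144 for cytosolic ribosomal protein genes. For the 5 mitochondrial ribosomal proteins with other symbols it was 0.128. The highest library exceeded the lowest by 1.18-fold to 1.81-fold, with a median of 1.36-fold, so that all 77 members stayed within a 2-fold range. The same held for 53.3% of all genes tested and 86.2% of those in the members' range of levels.

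MRPL3, a large subunit protein of the bacterial core, had the smallest ratio of highest to lowest library, at 77.8, 91.8 and 79.1 CPM in the controls, 80.7, 86.9 and 84.8 CPM in low glucose and 83.9, 80.4 and 83.4 CPM with BHB. By their SD within media, the 5 most even members were MRPS18B (0.0668), MRPL11 (0.0760), MRPS5 (0.0775), MRPL13 (0.0798) and MRPL3 (0.0849). All but MRPS18B are classed here with families found in bacteria. The least even were MRPS2 (0.245), MRPS36 (0.238), MRPL38 (0.231), MRPL48 (0.229) and MRPL23 (0.214). MRPS2, a small subunit protein with a bacterial counterpart, ranged widest, at 74.1, 98.2 and 101 CPM in the controls, 84.0, 99.5 and 134 CPM in low glucose and 114, 108 and 108 CPM with BHB. Control replicate 1 was its lowest and low glucose replicate 3 its highest library, and control and low glucose overlapped. MRPL38, a protein of the central protuberance of the large subunit, read 115, 149 and 152 CPM in the controls, 115, 133 and 174 CPM in low glucose and 148, 140.2 and 168 CPM with BHB, with low values in control replicate 1 and low glucose replicate 1. MRPS36 was high in control replicate 1 and low in low glucose replicate 3, at 27.0, 23.1 and 21.7 CPM in the controls, 24.7, 26.1 and 17.4 CPM in low glucose and 17.8, 23.8 and 20.4 CPM with BHB.

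Proteins with a known place in translation also stayed within a 2-fold range. MRPS12, of the decoding centre, stood at 26.0, 34.5 and 35.8 CPM in the controls, 32.4, 39.2 and 41.2 CPM in low glucose and 33.6, 36.4 and 36.8 CPM with BHB, lowest in control replicate 1 and overlapping between media. The stalk of the large subunit, which recruits translation factors, is built on MRPL10 and MRPL11 and carries MRPL12, a protein also found with the mitochondrial RNA polymerase. MRPL10 read 100.4, 103 and 101 CPM in the controls, 108, 100.4 and 115 CPM in low glucose and 96.2, 109.7 and 116 CPM with BHB, and MRPL11 read 125, 144 and 141 CPM in the controls, 136, 141 and 151 CPM in low glucose and 142, 145 and 143 CPM with BHB. MRPL12 was at 109, 147 and 134 CPM in the controls, 138, 139 and 151 CPM in low glucose and 139, 135 and 142 CPM with BHB, and again control replicate 1 was the lowest library. MRPL23, at the exit of the peptide tunnel, stood at 50.1, 67.9 and 70.8 CPM in the controls, 64.5, 81.1 and 71.4 CPM in low glucose and 60.7, 77.0 and 62.3 CPM with BHB. MRPL58, a peptidyl-tRNA hydrolase that became part of the large subunit, stood at 37.5, 53.6 and 56.0 CPM in the controls, 51.6, 59.2 and 53.8 CPM in low glucose and 49.1, 56.5 and 47.6 CPM with BHB. In both, control replicate 1 was the lowest of the 9 libraries.

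The MRPS18 proteins form a family of 3 paralogs related to a single bacterial protein, with MRPS18A in the large subunit and MRPS18B and MRPS18C at different places of the small one. In the family classes used here, MRPS18C was counted as found in bacteria, and MRPS18A and MRPS18B as mitochondrial. All 3 were expressed together in the blastocyst. MRPS18A had 55.8, 62.4 and 61.9 CPM in the controls, 62.1, 64.7 and 67.4 CPM in low glucose and 59.2, 66.9 and 58.9 CPM with BHB. MRPS18B had 67.0, 71.0 and 71.1 CPM in the controls, 81.0, 72.4 and 80.7 CPM in low glucose and 71.1, 69.4 and 74.5 CPM with BHB, and MRPS18C had 21.3, 28.1 and 25.2 CPM in the controls, 31.0, 26.3 and 22.4 CPM in low glucose and 23.7, 23.4 and 26.7 CPM with BHB. MRPS18B was higher in every low glucose library than in any control library, but its difference did not pass the test, and the other two overlapped. MRPS30, another large subunit protein, read 63.3, 74.3 and 75.4 CPM in the controls, 74.1, 80.7 and 78.2 CPM in low glucose and 66.6, 82.2 and 76.9 CPM with BHB.

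The library that stood apart was control replicate 1. For each gene the level in a library was compared with its mean over all 9. In control replicate 1 only 12 of 77 members lay above their own mean, against 50.6% of all genes tested. In the other libraries 31 to 55 members did. The median member was 0.15 below its mean on the log2 scale in control replicate 1 and between -0.02 and 0.07 elsewhere. Of the members, 41 had their lowest level in that library, against 21.8% of all genes: 27 of 50 in the large and 14 of 26 in the small subunit.

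**Figure D2:**
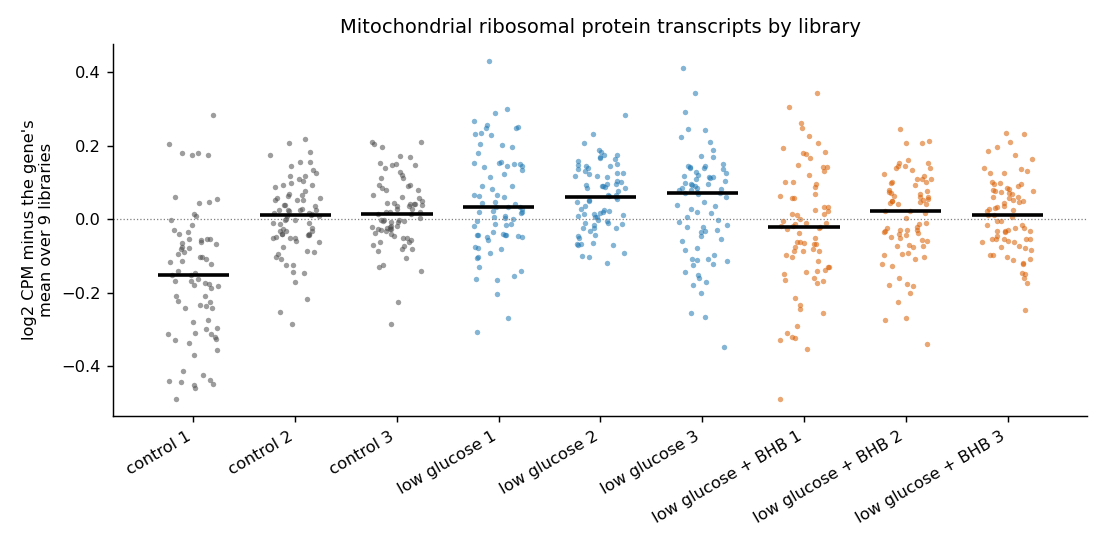
Deviation of each of the 77 members from its own mean over the 9 libraries (log2 CPM), by library. Points are genes, bars are medians and colours are media. Control replicate 1 has its median at -0.15, and the 8 other medians lie between -0.02 and 0.07.

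Against the 2 other control libraries, control replicate 1 held less of 63 members, and the median member stood at 0.908 of their mean. The deepest shortfall was that of MRPL48, a protein of the central protuberance, at 27.0, 43.2 and 37.0 CPM in the 3 controls, or 67.3% in replicate 1 of the mean of the others. MRPS36 differed most in the opposite direction, at 27.0, 23.1 and 21.7 CPM. Other markers moved with this library. Summed trophectoderm markers (8 genes) were lowest there, at 13019 CPM against 15660 to 19765 CPM elsewhere. So were epiblast markers (4 genes), at 1082 CPM against 1133 to 1332 CPM, and hypoblast markers (6 genes), at 713 CPM against 796 to 1031 CPM. Highest there were summed cumulus and granulosa markers, at 1514 CPM against 773 to 1496 CPM, but the genes of this list did not move as one. COL1A1, COL1A2 and LUM had their highest level in this library, at 323, 310 and 204 CPM. PTGS2 and CYP19A1 had their lowest there, at 355 and 17.1 CPM. Nuclear respiratory chain genes were lowest as well, at 15699.7 CPM against 16344 to 18824 CPM. Their part in the members' lower level was not tested. With library totals alone and no TMM factor, the sum of control replicate 1 was 4667 CPM, still the lowest of the 9 but next to the 4734 CPM of low glucose replicate 1.

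Blastocysts from low glucose medium showed no member past the threshold against control. Of the members, 63 of 77 had a log2 fold change above 0, or 81.8%, against 53.2% of all genes tested, and the median was 0.11 against 0.02 for all genes, which is 1.08-fold. The share above 0 was 60.9% for genes in the members' range of levels. It was larger than the members' in nuclear respiratory chain and ATP synthase genes (90.0%) and in cytosolic ribosomal protein genes (96.4%). In edgeR's quasi-likelihood test, 0 of 77 members had an adjusted p under 0.05, where 2.03% of all genes tested did, 0.00607% higher and 2.02% lower. No member had an unadjusted p under 0.05 either, where 7.33% of all genes did by edgeR, and DESeq2 called 0 members, adjusted or unadjusted. Of the 16469 genes tested, DESeq2 called 9 higher and 548 lower, and 202 and 1109 had an unadjusted p under 0.05. Of 23 genes listed as cumulus and granulosa markers, 5 were lower in low glucose at an edgeR adjusted p under 0.05. They were LUM, NR5A2, DCN, VCAN and GREM1. Of the 23, 19 were below 0, with a median of -0.86 on the log2 scale. The 4 above 0 were FSHR (0.21), AMHR2 (0.19), HSD3B1 (0.39) and PTGS2 (0.62), and CYP19A1 stood at -0.12. None of these passed. GATA4 was also lower at that threshold, 1 of 6 hypoblast markers, of which the other 5 were above 0 and the median was 0.21 on the log2 scale. None of 8 trophectoderm markers passed, and 3 were higher at an edgeR unadjusted p under 0.05, as were 164 of the 16469 genes tested. The part of all these markers in the members' values was not tested. Without control replicate 1 the median was 0.03, against 0.02 for all genes, and 51 members lay above 0. With library totals alone in place of TMM factors it was 0.0322, against -0.06 for all genes, with 48 members above 0, against 38.2% of all genes.

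The log2 fold changes ran from -0.24 to 0.28, with a median standard error of 0.128. Every member had a 95% interval inside a 2-fold change in either direction, which held for 60.9% of all genes tested and 94.5% of those in the members' range of levels. For 74 of the 77, or 96.1%, the interval also lay inside 1.5-fold, against 41.9% of all genes tested and 74.7% of those in the members' range. Similar groups were close to the members, at 93.8% for nuclear respiratory chain and ATP synthase genes and 94.0% for cytosolic ribosomal protein genes.

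Groups that do not overlap were found for 10 members with higher values in low glucose, or 13.0%, against 4.31% of all genes tested, and for 1 member with lower values, against 8.85%. The share with higher values was 4.50% for genes in the members' range of levels. It was 8.75% for nuclear respiratory chain and ATP synthase genes and 25.3% for cytosolic ribosomal protein genes. Without control replicate 1 the counts were 10 and 2, against 7.73% and 12.6% of all genes. MRPL17, a bacterial-type protein near the exit of the peptide tunnel, was at 55.2, 70.4 and 63.3 CPM in the controls and 70.6, 76.0 and 75.2 CPM in low glucose, a log2 ratio of 0.23 (SE 0.115, edgeR adjusted p = 0.771). MRPL2, which lies close to the catalytic centre, was at 91.3, 105 and 112 CPM in the controls and 119, 124 and 119.6 CPM in low glucose, a log2 ratio of 0.24 (SE 0.114, edgeR adjusted p = 0.745). The 3 low glucose libraries lay above the controls for both genes, by a small margin for MRPL17.

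MRPL53, a protein of a mitochondrial family, read 73.4, 75.4 and 81.1 CPM in the controls and 97.8, 85.1 and 87.2 CPM in low glucose, with a log2 ratio of 0.23 (SE 0.113). MRPL34, a small protein of the bacterial core, read 56.2, 64.2 and 67.2 CPM in the controls and 69.8, 74.2 and 75.0 CPM in low glucose, with a log2 ratio of 0.22 (SE 0.112). For MRPL52, a central protuberance protein, values were 42.4, 43.6 and 49.8 CPM in the controls and 52.3, 54.0 and 53.2 CPM in low glucose, with a log2 ratio of 0.23 (SE 0.125). All 3 were without overlap, and none passed. None of the 9 estimated counts of MRPL17, MRPL2 or MRPL53 is whole, so these levels rest in part on how shared reads were divided. MRPL32, whose imported precursor is cut by an inner membrane protease in yeast and mouse, stood at 20.6, 24.7 and 24.1 CPM in the controls and 28.4, 26.6 and 26.7 CPM in low glucose, with a log2 ratio of 0.24 (SE 0.145).

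MRPS26, a small subunit protein of a mitochondrial family, had the highest log2 fold change, at 0.28 (SE 0.145, edgeR adjusted p = 0.824). Its values were 79.1, 103 and 99.6 CPM in the controls and 97.3, 117 and 127 CPM in low glucose. The groups overlapped, since low glucose replicate 1 fell below 2 of the controls. MRPL36, a short zinc-binding protein of the large subunit, came next at 0.25 (SE 0.167), with overlapping values of 25.4, 25.6 and 36.1 CPM in the controls and 30.4, 33.3 and 39.5 CPM in low glucose.

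MRPS6 was the lowest of the members, and the only one below control without overlap. The protein pairs with the MRPS18 counterpart in bacterial small subunits. It stood at 31.6, 30.3 and 32.2 CPM in the controls and 27.2, 27.4 and 25.3 CPM in low glucose, a log2 ratio of -0.24 (SE 0.137, edgeR adjusted p = 0.909). Control replicate 1 was close to the other controls. In the RefSeq gene table of the assembly ARS-UCD2.0, MRPS6 overlaps SLC5A3, a sodium and inositol transporter gene that was not analysed here, and none of its 9 estimated counts is whole, so its level is uncertain. The next lowest were MRPL22, which lines the peptide tunnel, at -0.14 (SE 0.163), and MRPL45, which contacts the inner membrane, at -0.12 (SE 0.118). Both overlapped between media, with MRPL22 at 33.7, 32.4 and 31.0 CPM in the controls and 35.4, 27.9 and 25.0 CPM in low glucose and MRPL45 at 80.0, 77.1 and 86.1 CPM in the controls and 69.5, 77.1 and 77.3 CPM in low glucose.

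**Figure D3:**
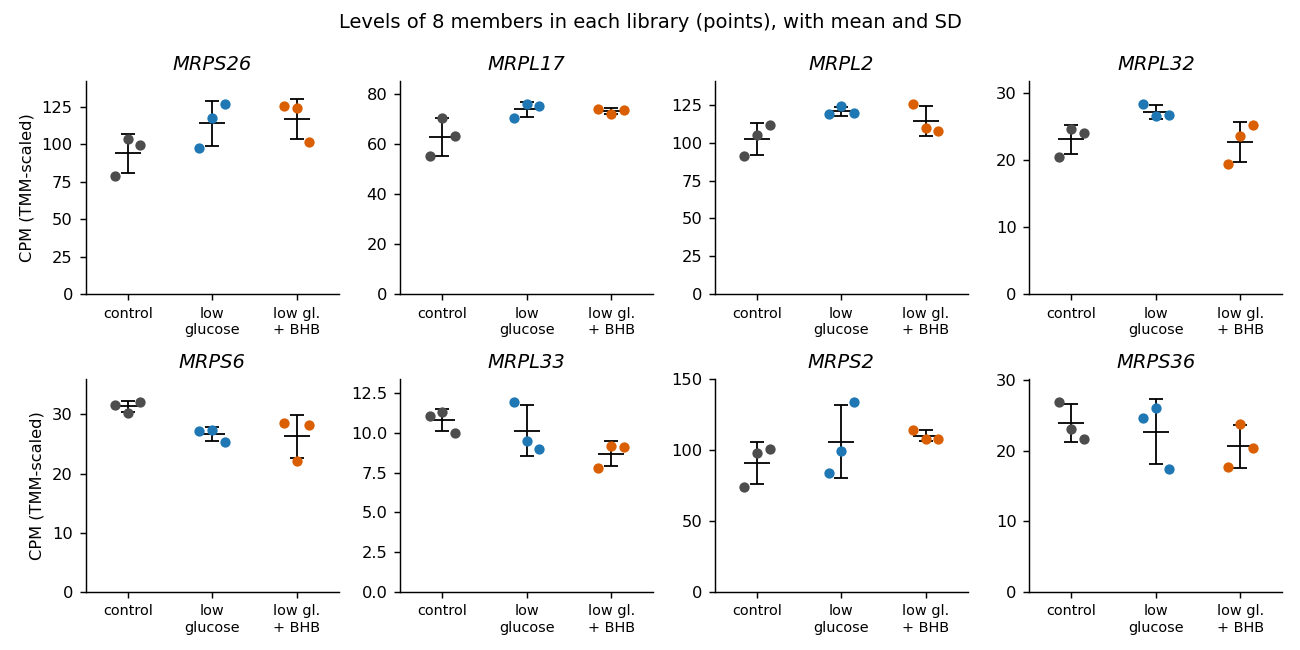
Levels of 8 members in every library (TMM-scaled CPM, linear axes from 0). Points are libraries, the long bar is the mean and the whiskers are 1 SD (n = 3). Low glucose values lie above control for MRPL17, MRPL2 and MRPL32 and below it for MRPS6, while those of MRPS26, MRPL33, MRPS2 and MRPS36 overlap with control.

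By subunit and family the values were close, and their difference was not tested. The median log2 fold change was 0.11 for the large and 0.10 for the small subunit, and 0.11 both for families found in bacteria and for mitochondrial families. MRPS36 stood at -0.07.

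With BHB in the low glucose medium, members again showed no call against control. Here 50 of 77 members were above 0, or 64.9%, against 51.5% of all genes, and the median was 0.06 against 0.01, or 1.04-fold. The share above 0 was 58.8% for genes in the members' range of levels and 60.2% for cytosolic ribosomal protein genes. Among nuclear respiratory chain and ATP synthase genes it was 53.8%. By edgeR, 0 of 77 had an adjusted p under 0.05, where 1.38% of all genes did, 0.00607% higher and 1.38% lower. No member had an unadjusted p under 0.05, where 7.32% of all genes did. DESeq2 called 0 after adjustment and had 1 member with an unadjusted p under 0.05. Of the 16469 genes tested, DESeq2 called 8 higher and 412 lower, and 346 and 986 had an unadjusted p under 0.05. As in low glucose alone, 5 of 23 genes listed as cumulus and granulosa markers were below control at an edgeR adjusted p under 0.05. They were LUM, DCN, VCAN, NR5A2 and COL3A1, and GATA4 was lower too. Of the 23, 17 were below 0, FSHR among them (-0.22), with a median of -0.89 on the log2 scale. The 6 above 0 included CYP19A1 (0.08), AMHR2 (0.44) and LHCGR (0.92), and neither these nor FSHR passed. Among the 6 hypoblast markers, 4 were above 0 and their median was 0.29 on the log2 scale. At the same time 2 of 8 trophectoderm markers were higher at an edgeR unadjusted p under 0.05, as were 299 of the 16469 genes tested. The part of these markers was not tested. Without control replicate 1 the median turned to -0.00701, against 0.01 for all genes, and 36 members lay above 0. With library totals alone it was 0.0228, against -0.03 for all genes, with 47 members above 0. Both comparisons against control share the control libraries, so their values are not independent.

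Log2 fold changes ran from -0.31 to 0.32, and all 77 intervals again lay inside 2-fold, against 61.2% of all genes tested and 94.6% of those in the members' range. Values without overlap were found for 3 higher members, or 3.90% against 4.77% of all genes, and for 2 lower members, against 8.56%. Both shares were no larger than the background. Without control replicate 1 the counts were 3 and 5, against 8.13% and 12.2% of all genes.

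MRPS26 was highest in this comparison too, at 125, 124 and 101 CPM with BHB against 79.1, 103 and 99.6 CPM in control, a log2 ratio of 0.32 (SE 0.145, edgeR adjusted p = 0.685). BHB replicate 3 lay between the controls, so the groups overlapped. For MRPL17 the BHB libraries read 74.1, 72.0 and 73.7 CPM, all above the controls, a log2 ratio of 0.22 (SE 0.115). MRPL34 was at 67.3, 74.3 and 67.4 CPM, just above the highest control, with a log2 ratio of 0.16 (SE 0.112). MRPS2 was at 114, 108 and 108 CPM, above all controls, with a log2 ratio of 0.28 (SE 0.170). None of these differences passed the test.

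MRPL57, a small protein of a mitochondrial family, stood at 30.2, 29.5 and 34.1 CPM in control and 43.4, 37.6 and 30.7 CPM with BHB, a log2 ratio of 0.25 (SE 0.144). MRPL41, of another mitochondrial family, stood at 61.1, 66.3 and 91.3 CPM in the controls and 97.6, 82.9 and 79.6 CPM with BHB, a log2 ratio of 0.25 (SE 0.151). For MRPL57 and MRPL41 the media overlapped, and control replicate 3 was the highest control of both.

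At the low end were MRPL33, MRPS6 and MRPS36. MRPL33, a small bacterial-type protein of the large subunit, read 11.1, 11.3 and 9.99 CPM in control and 7.81, 9.16 and 9.13 CPM with BHB, without overlap, a log2 ratio of -0.31 (SE 0.182, edgeR adjusted p = 0.852). MRPS6 read 28.6, 22.1 and 28.2 CPM with BHB, below all controls, at -0.26 (SE 0.137, edgeR adjusted p = 0.807). MRPS36 read 17.8, 23.8 and 20.4 CPM with BHB and overlapped control, at -0.21 (SE 0.182). None of the 9 estimated counts of MRPL33 is whole, as for MRPS6.

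By subunit the medians were 0.07 for the large and 0.04 for the small, and by family 0.05 for those found in bacteria and 0.07 for mitochondrial ones.

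**Figure D4:**
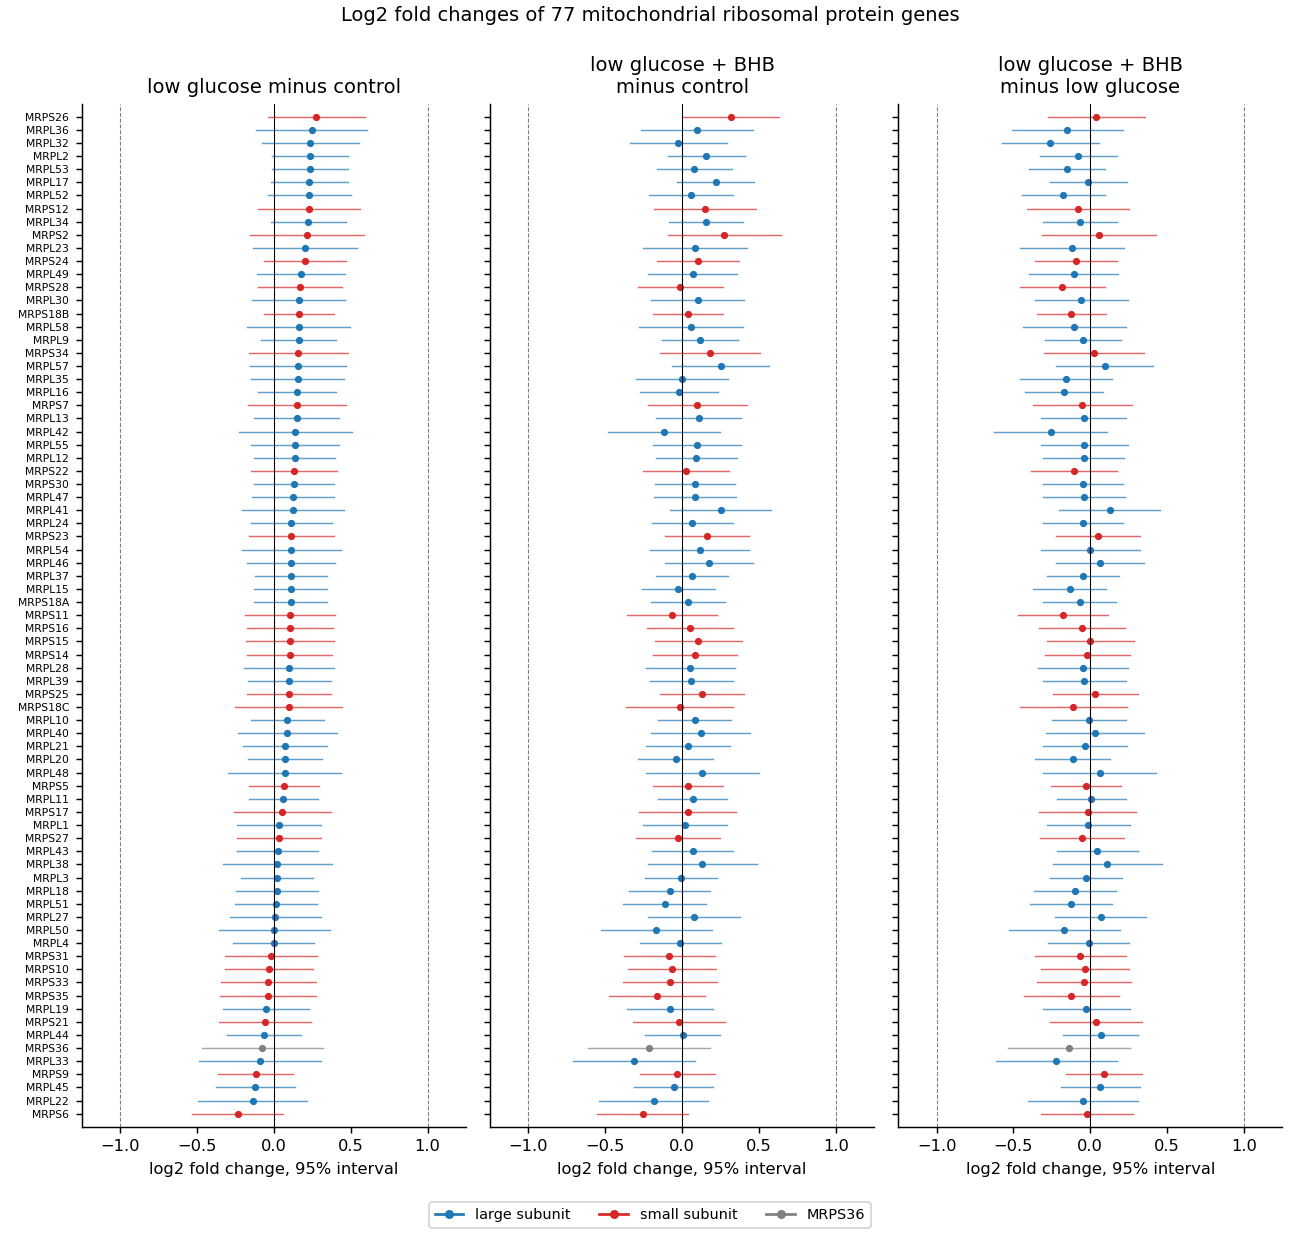
Log2 fold change of each of the 77 members with its 95% interval in the 3 comparisons, in the order of the low glucose against control values. Colours mark the subunit, and dashed lines mark a 2-fold change. Every interval lies between the dashed lines, with points from -0.31 to 0.32.

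With BHB against low glucose alone, no member passed the threshold. Of the members, 19 of 77 were above 0, or 24.7%, against 51.2% of all genes tested, and the median was -0.05 against 0.01. The share above 0 was 52.0% for genes in the members' range of levels. It was smaller than the members' in nuclear respiratory chain and ATP synthase genes (10.0%) and in cytosolic ribosomal protein genes (2.41%). No gene of the table passed either: 0% of 16469 genes had an adjusted p under 0.05 by edgeR, 270 (1.64%) had an unadjusted p under 0.05, and DESeq2 called 2. No member had an unadjusted p under 0.05 by either tool. All 77 intervals lay inside 2-fold, against 64.1% of all genes and 97.3% of those in the members' range. Without low glucose replicate 2 the members above 0 numbered 29. These values depended on the scaling: with library totals alone 38 members were above 0, against 59.8% of all genes, the median was -0.00171 against 0.05, and the mean summed level was 4971 CPM with BHB and 4952 CPM in low glucose, the reverse of the order with TMM factors.

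MRPL32 had the lowest value, at 28.4, 26.6 and 26.7 CPM in low glucose and 19.4, 23.6 and 25.2 CPM with BHB, without overlap, a log2 ratio of -0.26 (SE 0.145). Its BHB values overlapped those of control. MRPL16, a bacterial-type protein of the large subunit, read 91.0, 74.4 and 83.0 CPM in low glucose and 80.4, 66.8 and 73.5 CPM with BHB, a log2 ratio of -0.17 (SE 0.116). MRPL42, of a mitochondrial family, read 31.9, 24.6 and 21.9 CPM in low glucose and 18.6, 22.2 and 24.9 CPM with BHB, a log2 ratio of -0.26 (SE 0.168), and its groups overlapped as did those of MRPL16. Within the 3 pairs of libraries with the same replicate number, an uncertain pairing that the labels do not give, MRPL16 was lower with BHB each time and MRPL42 in 2. With the number as a block, MRPL16 kept a log2 ratio of -0.17 (SE 0.108, edgeR adjusted p = 1.00). Of the members, 10 were lower in every pair, or 13.0% against 9.38% of all genes tested, and 1 was higher in every pair, against 10.9%.

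MRPS28 and MRPS11, both of the small subunit, lay at -0.18 (SE 0.126) and -0.17 (SE 0.135). MRPS11 was at 30.9, 32.0 and 31.9 CPM in low glucose and 25.5, 29.4 and 29.2 CPM with BHB, without overlap, and MRPS28 at 38.0, 33.6 and 36.4 CPM in low glucose and 28.0, 34.9 and 32.4 CPM with BHB. MRPL52 and MRPL53 lay at -0.17 (SE 0.125) and -0.15 (SE 0.113), and their BHB libraries read 43.8, 54.0 and 43.6 CPM for MRPL52 and 81.9, 73.5 and 87.5 CPM for MRPL53. MRPL33 lay at -0.22 (SE 0.182), from 12.0, 9.46 and 8.99 CPM in low glucose.

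The highest values were those of MRPL41 (0.13), MRPL38 (0.11) and MRPL57 (0.09), all with overlapping groups. MRPL38 fell on the other side of 0, at -0.02, without low glucose replicate 1, and MRPL57 at -0.03 without BHB replicate 1. In all, 3 members were lower without overlap, MRPL20, MRPL32 and MRPS11, which is 3.90% against 2.54% of all genes tested, and none was higher, against 2.96%. MRPL20, a bacterial-type protein named after its values were seen, read 70.2, 62.4 and 61.9 CPM in low glucose and 58.4, 59.5 and 61.8 CPM with BHB.

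The position of the genes was looked up in the same RefSeq table, in which all 77 were found. MRPL46 and MRPS11 were the only members that are nearest neighbours of each other, among protein-coding genes. MRPL46, of the central protuberance and named after its values were seen, stood at 29.5, 39.3 and 34.8 CPM in the controls, 35.8, 39.1 and 37.3 CPM in low glucose and 39.5, 40.9 and 36.7 CPM with BHB, and MRPS11 at 25.3, 30.6 and 32.1 CPM in the controls, 30.9, 32.0 and 31.9 CPM in low glucose and 25.5, 29.4 and 29.2 CPM with BHB. All 9 estimated counts of both genes are fractional, as in 20 members in all, while 51 members had whole counts in every library (within 0.000001). Overlap with another protein-coding gene was found for 14 members, among them MRPL2 with KLC4, MRPL16 with STX3 and MRPL57 with ZDHHC20. Of these overlapping genes, 12 have a row in the table under the same symbol, and 0 of them passed the threshold in any comparison. Overlap here means that the spans of whole genes overlap, which does not show that reads were shared. The counts of MRPL16 and MRPL57 were whole in every library, and none of those of MRPL2 was. The counting is not stated to use strand, so reads may not be told apart where the transcripts themselves overlap.

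Genes that work with the mitochondrial ribosome, from lists chosen by function, had no edgeR or DESeq2 calls either. The 5 ribosomal proteins with other symbols had 0 calls in each comparison and medians of 0.06, 0.04 and -0.02, in the order in which the comparisons were described. CHCHD1, a small subunit protein, was at 22.6, 33.1 and 33.6 CPM in the controls, 33.3, 32.4 and 33.9 CPM in low glucose and 27.6, 30.0 and 31.2 CPM with BHB, with control replicate 1 lowest. GADD45GIP1, of the large subunit, was at 36.0, 46.1 and 49.3 CPM in the controls, 42.7, 51.9 and 57.5 CPM in low glucose and 52.7, 55.1 and 41.9 CPM with BHB, with the same library lowest.

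Assembly factors of the ribosome had 0 calls among 24 in each comparison, with medians of 0.07, 0.10 and 0.02. Of these, MRM2, which methylates the large ribosomal RNA, had a log2 ratio of 0.27 (SE 0.154) in low glucose against control. Translation factors also had 0 calls among 24, with medians of 0.06, 0.06 and -0.00. MRRF, the factor that recycles ribosomes after termination, had the smallest p among them against control, with an unadjusted p under 0.05 in both comparisons, at 23.3, 26.8 and 28.3 CPM in the controls, 29.9, 40.8 and 31.8 CPM in low glucose and 32.8, 37.5 and 31.5 CPM with BHB. Its log2 difference was 0.39 (SE 0.153, edgeR adjusted p = 0.474) in low glucose and 0.38 (SE 0.153, edgeR adjusted p = 0.549) with BHB, and in both media all libraries lay above the controls. TACO1, a translational activator of a cytochrome oxidase subunit, was at 9.90, 9.10 and 9.48 CPM in the controls, 7.64, 7.00 and 7.41 CPM in low glucose and 11.4, 8.35 and 8.06 CPM with BHB, lower in each low glucose library than in any control library, at -0.37 (SE 0.191, edgeR adjusted p = 0.808).

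Mitochondrial aminoacyl-tRNA synthetases, which load tRNAs inside the organelle, had 0 calls among 17 and medians of 0.10, 0.12 and -0.01. WARS2, for tryptophan, was at 13.3, 12.3 and 14.5 CPM in the controls, 18.3, 16.4 and 18.4 CPM in low glucose and 12.8, 15.8 and 14.5 CPM with BHB, with a log2 ratio of 0.40 (SE 0.153, edgeR adjusted p = 0.427) in low glucose against control. Genes for maintenance, transcription and processing of mitochondrial DNA and RNA had 0 calls among 16 and medians of 0.05, 0.04 and -0.03, with ELAC2, which trims tRNA precursors, at a log2 ratio of 0.28 (SE 0.155) in low glucose against control. Regulators known to act on nuclear genes of mitochondria, such as PPRC1 and PPARGC1A, had 0 calls among 10, with medians of 0.05, 0.11 and -0.01. PPARGC1A was barely expressed, at 1.26, 0.516 and 0.327 CPM in the controls, 0.351, 0.845 and 0.237 CPM in low glucose and 0.131, 0.256 and 0.255 CPM with BHB.

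Set beside other gene groups, cytosolic ribosomal protein genes had medians of 0.17, 0.02 and -0.14 over 83 tested genes, with 0 calls, and nuclear genes of the respiratory chain and ATP synthase 0.11, 0.03 and -0.09 over 80, with 0 calls. Mitochondrially encoded genes had medians of 0.31, -0.35 and -0.72 over 13, with 0 calls. Between BHB and low glucose, 8 of them had an unadjusted p under 0.05 by edgeR, where 1.64% of all genes did, against 2 of them by DESeq2. All 13 were below 0 there, but 0 were without overlap. Their median SD within media was 0.531, against 0.291 over all genes tested. These genes lie in 1 genome, so the 8 are not counted as separate results.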

How the data were processed

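RNA was sequenced from 9 pools of bovine blastocysts, as poly(A)-enriched NEBNext libraries per the labels' protocols. Estimated counts for each gene and library were deposited by the authors, unscaled between libraries. The submitters' processing notes name fastp, kallisto, DESeq2 and the build bosTau9; the sources used here give no versions, annotation or role for each tool. Members were chosen by symbol, with 0 columns of unknown samples. The members, lists and named-gene rule were chosen with earlier results of these data known.

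Counts were rounded and all 9 libraries fitted together in edgeR 4.0.16 (R 4.3.3): filterByExpr (minimum count 10, minimum total 15), TMM factors, 3 group means, quasi-likelihood tests, two-sided, Benjamini-Hochberg adjustment over 16469 genes, threshold 0.05. Standard errors come from the fold change and F, and log2 CPM used a prior count of 2. The fit was tested on simulated data. Alternatives were RLE factors, library totals alone, other filters, a replicate block, DESeq2 1.42.0, only the 6 libraries compared, and leaving out each library. Replicate numbers were taken to pair the 2 low glucose media, from the data and not the labels, since correlations of same-numbered deviations were 0.115, 0.243 and 0.102, all over 0.1, but not against control (0.0417 to 0.144). All these correlations were weak, and replicate 1 against control reached 0.131 and 0.144, so the pairing is uncertain.

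Named were members past the threshold, the 8 of smallest p and the 3 highest and lowest fold changes per comparison, the 5 most and least even, and 11 fixed names; from other lists, genes past the threshold and the 2 of smallest p, of which not all are printed. The part of that rule on levels per coding length could not be applied, as no transcript lengths were used, and no gene or protein sequences were used. Replicates differed beyond sampling noise (chi-square per degree of freedom at least 39.2). The list of blood and immune markers had 0 calls. Figures used matplotlib 3.10.9.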

Additional observations from a re-analysis of the deposited data

How the results depend on the processing

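No member was called in any comparison under any of the 16 alternatives, and the values of members named for a comparison kept their direction in all fits but 2, both for BHB against low glucose: MRPL38 ran from -0.0198 without low glucose replicate 1 to 0.29, and MRPL57 from -0.0318 without BHB replicate 1 to 0.21, and the cause was not tested. The replicate block changed no call, with 0 members called in each comparison and medians of 0.11, 0.06 and -0.05. Over the fits that each left out 1 library, the median of the members ran from 0.0305 to 0.15 for low glucose against control, from -0.00701 to 0.10 for BHB against control and from -0.06 to -0.04 for BHB against low glucose; the lowest value of the first and second was the one without control replicate 1. Counts chosen after seeing the data also moved: members above 0 ran from 51 to 65, from 36 to 59 and from 18 to 29. Members higher without overlap ran from 10 to 21, from 3 to 11 and from 0 to 3. Members lower without overlap ran from 1 to 5, from 2 to 6 and from 3 to 11. Here 2 libraries in a group separate more easily than 3, for all genes as well. With all 9 libraries, 4.31%, 4.77% and 2.96% of all genes tested were higher without overlap, and 8.85%, 8.56% and 2.54% lower. The shares against control rose without control replicate 1, as given above, so these counts are not read as a result about the members. Over all genes tested, calls numbered 334, 228 and 0, by DESeq2 557, 420 and 2, and without 1 library 196 to 391, 91 to 257 and 0. With library totals alone, chosen for the fits after seeing the data, the median was 0.0322 for low glucose against control, and 38 members were above 0 for BHB against low glucose. The mean summed level in low glucose was 4952 CPM in place of 5089 CPM, below the 4971 CPM with BHB, so the order of these media rests on the scaling. Pools of 9 to 11 embryos and 3 libraries a medium limit what can be seen, and the widest interval of a member reached a 1.63-fold change.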
